A study of Rattus norvegicus with 12 samples.

Results

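Schwann cells wrap and support the axons of peripheral nerves, including the fine nerves of the skin, and the myelin that some of them make is a stack of membrane held together by a small set of proteins. When a nerve is cut, Schwann cells lower their myelin genes, take up a repair state in which the neurotrophin receptor p75 is raised, and guide regrowing axons. Diabetes is known to damage these nerves. Here 6 genes of these cells were followed in full-thickness skin wounds of diabetic rats, namely the myelin genes *Mbp*, *Pmp22*, and *Prx*, the Schwann cell marker *S100b*, the transcription factor *Sox10*, and the p75 receptor gene *Ngfr*. They were taken by their symbols, with earlier results of these data known. All 6 were found among the 25620 genes with read counts and among the 25524 genes with FPKM values.

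The wounds were made on the backs of male Sprague-Dawley rats with diabetes induced by streptozotocin, a toxin of the insulin-producing cells, so that the controls were diabetic as well. The 4 treatments were normal saline (control), the dried mucus gel of the snail *Achatina fulica* (d-SMG), the sulfated glycosaminoglycan purified from that mucus (s-GAG), and an alginate dressing (Alg). Whole wound skin was sequenced on day 3, 7, and 14 as 1 library per treatment and day, 12 in all, and the labels do not say which animals or how many entered a library. No library thus has a replicate of its own treatment and day. In tissue of many cell types, fewer Schwann cells and less RNA per Schwann cell cannot be told apart.

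The libraries held between 13748887 and 38302461 reads on genes. Tissue makeup differed between the libraries. The d-SMG library of day 3 had a summed level of 6 keratinocyte markers of only 45.7 CPM, against 4290 to 28559 in the other 11 libraries, and the highest level of 10 skeletal muscle markers, 202987 CPM. The s-GAG library of day 14 had 240.3 CPM of 8 melanocyte markers, against at most 54.4 elsewhere, and the lowest level of 8 macrophage markers, 425.2 CPM. The 10 skeletal muscle markers had a median of 44843 CPM over the 12 libraries. They summed to 4692 CPM in d-SMG on day 7, 6222 in d-SMG on day 14, and 10330 in Alg on day 14. The part of these differences in the ratios to control below was not tested. CPM stands here for the read count scaled to the library total after TMM normalization, which matches the libraries on the bulk of their genes. The 8 endothelial markers ranged from 340.4 to 870.6 CPM, and no gene of any marker list was called in the fitted comparisons below.

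The DNA just before the start of 3 of the genes is shown to make plain what was and was not found there. The promoter table of RefSeq on the rat build GRCr8 held 4 of the 6 genes, and *Sox10* and *Ngfr* were not matched. The build used for the deposited tables is not given, so these positions belong to GRCr8 alone. The 250 bases before the start are printed 5′ to 3′ on the strand of the gene, and the capitals mark CCAAT or its reverse complement ATTGG, a common promoter element.
Pmp22, chr10:48294682-48294931, plus strand: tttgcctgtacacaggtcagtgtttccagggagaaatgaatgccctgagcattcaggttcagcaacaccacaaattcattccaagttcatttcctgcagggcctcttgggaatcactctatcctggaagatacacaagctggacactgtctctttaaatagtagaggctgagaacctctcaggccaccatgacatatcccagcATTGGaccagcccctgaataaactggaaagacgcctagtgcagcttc
Prx, chr1:91914171-91914420, plus strand: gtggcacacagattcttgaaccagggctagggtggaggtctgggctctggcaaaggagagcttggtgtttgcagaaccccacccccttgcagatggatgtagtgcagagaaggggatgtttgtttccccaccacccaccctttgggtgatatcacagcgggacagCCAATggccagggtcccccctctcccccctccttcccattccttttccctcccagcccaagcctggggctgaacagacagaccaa
S100b, chr20:12381082-12381331, minus strand: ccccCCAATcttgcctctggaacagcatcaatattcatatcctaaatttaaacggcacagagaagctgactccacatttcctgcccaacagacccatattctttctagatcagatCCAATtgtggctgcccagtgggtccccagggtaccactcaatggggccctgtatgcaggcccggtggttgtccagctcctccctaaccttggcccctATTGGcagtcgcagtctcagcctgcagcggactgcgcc

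*Pmp22* carried this element once, *Prx* once, and *S100b* 3 times, and 34% of 33469 promoter windows of that length carried it at least once on either strand. ACAAAG and ACAATG, short cores of the sequence bound by SOX proteins such as Sox10, were absent from these 3 windows on both strands, and 25.3% of all windows held one or the other. For *Mbp* the table listed 2 starts, 79.6 kb apart. The second window held ACAAAG once and ACAATG 2 times, counting both strands, and the first held neither. CCAAT was absent from both *Mbp* windows on either strand, so the 3 genes printed are those of the 4 that carried it. The reads were counted per gene, so transcripts of the 2 *Mbp* starts are summed in every value below.

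On the FPKM scale, which divides by transcript length and so allows genes to be compared, *Pmp22* stood highest of the 6 in 10 libraries and *S100b* in the other 2. The median level of *Pmp22* was 11.8 FPKM, with a range of 8.03 to 21.8, and that of *S100b* 8.95 FPKM, with a range of 2.63 to 17.0. *Prx* (median 2.57 FPKM), *Mbp* (2.38 FPKM), and *Ngfr* (1.76 FPKM) lay between them and *Sox10*, and changed places among themselves from library to library. *Sox10*, at 0.24 to 2.01 FPKM, was the lowest in all 12. Every one of the 6 genes had reads in each library, from 13 reads of *Sox10* in the d-SMG library of day 3 to 988 reads of *Pmp22* in the control library of day 3.

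*Mbp* encodes myelin basic protein, which binds the inner faces of the myelin membrane together. On day 3 its level was 15.5 CPM in control, 8.41 in d-SMG, 11.3 in s-GAG, and 19.1 in Alg. On day 7 it was 4.40 CPM in control, 12.6 in d-SMG, 6.49 in s-GAG, and 10.7 in Alg. On day 14 it was 15.8 CPM in control, 5.38 in d-SMG, 5.32 in s-GAG, and 7.94 in Alg. The control library was thus the lowest of its day on day 7 and the highest on day 14, and the ranges of the 3 days overlapped.

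*Pmp22* encodes a membrane protein of compact peripheral myelin and is also expressed by other cells of the skin. Its day 3 levels were 42.0 CPM in control, 39.2 in d-SMG, 30.8 in s-GAG, and 48.1 in Alg. Its day 7 levels were 21.3 CPM in control, 38.6 in d-SMG, 21.2 in s-GAG, and 25.6 in Alg. Its day 14 levels were 34.7 CPM in control, 23.8 in d-SMG, 23.6 in s-GAG, and 22.2 in Alg. It varied least of the 6 genes, with a highest level 2.26 times the lowest. On day 14 the 3 dressed libraries lay close together and below control.

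*Prx* encodes periaxin, a scaffold on the outer side of the myelin sheath. Its levels on day 3 were 21.1 CPM in control, 19.2 in d-SMG, 13.6 in s-GAG, and 36.1 in Alg. They were 8.06 CPM in control, 16.3 in d-SMG, 11.8 in s-GAG, and 17.9 in Alg on day 7. On day 14 they were 14.8 CPM in control, 7.70 in d-SMG, 14.4 in s-GAG, and 9.77 in Alg. Alg on day 3 was far above the other 11 libraries, and d-SMG on day 14 was the lowest.

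*S100b* encodes a calcium-binding protein used to stain Schwann cells, and is known from adipocytes and melanocytes as well. Control had 19.4 CPM on day 3, 4.74 on day 7, and 16.6 on day 14. In d-SMG the levels were 9.99, 12.6, and 9.26 CPM on day 3, 7, and 14, and in s-GAG 15.4, 19.0, and 10.6 CPM. Alg had 28.7, 15.9, and 19.9 CPM. The control library of day 7 was the lowest of the 12 by a wide margin, and the highest 2 were both Alg.

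*Sox10* encodes the transcription factor that keeps Schwann cell identity and drives myelin genes. Control had 6.63 CPM on day 3, 0.948 on day 7, and 4.07 on day 14. In d-SMG the levels were 1.08, 2.44, and 1.31 CPM, and in s-GAG 4.71, 2.60, and 2.21 CPM. Alg had 3.95, 3.91, and 0.946 CPM. The lowest values rest on few reads, 13 in d-SMG on day 3, 14 in control on day 7, and 15 in Alg on day 14.

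*Ngfr* encodes p75, the receptor shared by the neurotrophins and raised in repair Schwann cells. Control had 16.9 CPM on day 3, 3.45 on day 7, and 16.2 on day 14. In d-SMG the levels were 5.91, 5.64, and 6.57 CPM, and in s-GAG 7.94, 3.56, and 6.36 CPM. Alg had 5.92, 6.56, and 5.04 CPM. The control libraries of day 3 and 14 stood alone, and the other 10 libraries all lay between 3.45 and 7.94 CPM.

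**Figure D1:**
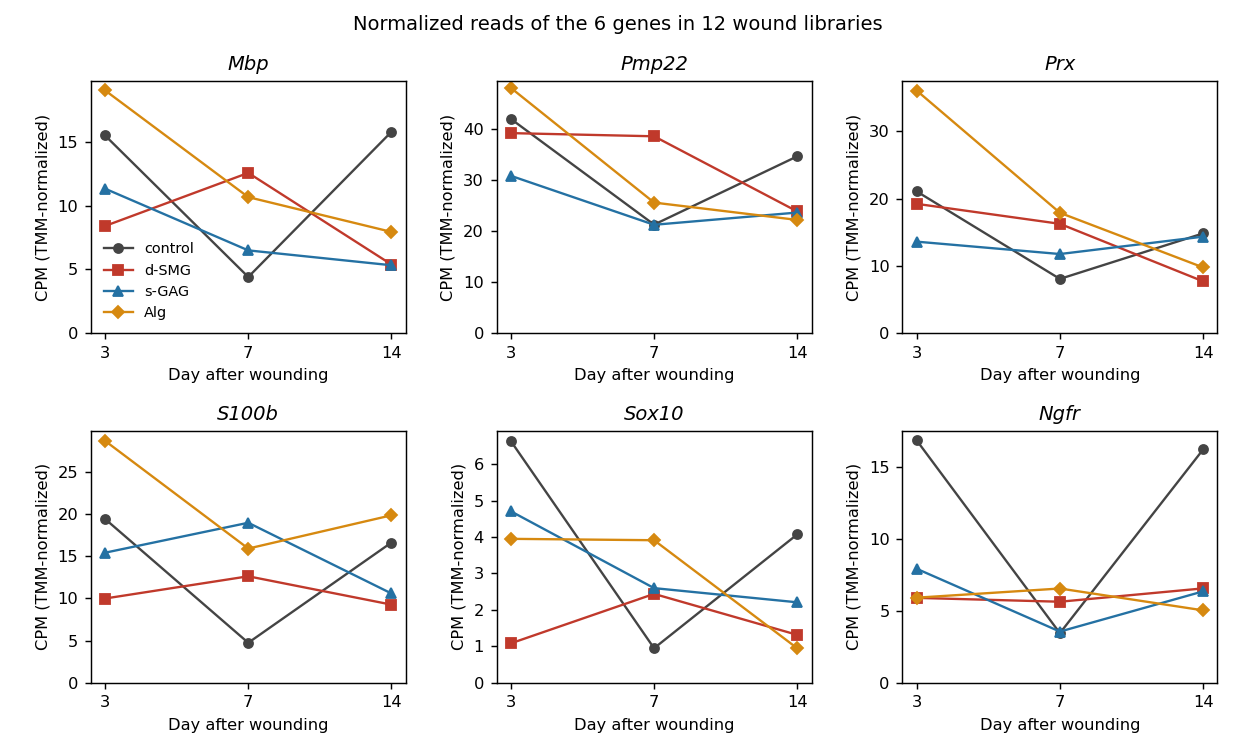
TMM-normalized reads (CPM, linear axis from 0) of each gene against the day after wounding, with 1 point per library and 1 line per treatment. The control line dips on day 7 in all 6 panels, and in the *Ngfr* panel control on day 3 and 14 lies at 16.9 and 16.2 CPM while all other points are at or below 7.94 CPM.

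The control library of day 7 held the lowest or second lowest value of all 6 genes, and the lowest of 3 of them (*Mbp*, *S100b*, and *Ngfr*). For comparison, that library held 1 of the lowest 2 values for 18.2% of the 16110 genes tested. The control library of day 3 held 1 of the highest 3 values of all 6 genes, against 31% of the genes tested. Both libraries were picked out after their values were seen, so these shares are a description.

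Other myelin genes were low in that library too. Of 14 further myelin genes with enough reads, 6 had their lowest value in the control library of day 7, as had 7.74% of all genes tested. *Ncmap*, a protein of noncompact myelin, had 1.83 CPM there against at most 25.4 elsewhere. *Lgi4*, a protein secreted by Schwann cells, had 5.01 CPM, and *Gfap*, a filament of nonmyelinating Schwann cells, had 0.271 CPM from 4 reads. The lists these 2 belong to were low in part. Of 11 Schwann lineage genes tested only *Lgi4* had its lowest value there and 1, *Zeb2*, had its highest. In that list 4 of 11 genes had 1 of their lowest 2 values there, against 18.2% of the genes tested. The summed level of that list, 456.7 CPM, was the second highest of the 12 libraries, but *Zeb2* alone made up 394.1 CPM of it. Of 11 genes of nonmyelinating and repair Schwann cells 4 had their lowest value there, while that list summed to 318.7 CPM, above 7 of the libraries. *Ncam1*, an adhesion molecule also made by muscle, had its second highest value in the same library and made up 138.9 CPM of that sum.

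Markers of other tissues also moved in this library. The 8 fibroblast markers summed to 43916 CPM in the control library of day 7, the highest of the 12, and to 7988 CPM in the lowest library of day 7. Its 8 endothelial markers summed to 870.6 CPM, also the highest of the 12, and its 6 keratinocyte markers to 4290 CPM, the second lowest. The 8 adipocyte markers summed to 628.1 CPM, the lowest of the 12 and below the day 7 maximum of 1451 CPM. The 8 melanocyte markers summed to 24.9 CPM, also the lowest, but *Mitf* alone made up 23.3 CPM of it. In the d-SMG library of day 3 *Mitf* made up 42.0 of 42.3 CPM. *Mlana* had 0 reads there and 9 reads in the control library of day 7. The low melanocyte sum thus does not show that the other melanocyte markers were lowest. The 10 skeletal muscle markers were at 52794 CPM in the control library of day 7, above 7 of the other libraries. The part of this makeup in the low values of the 6 genes was not tested.

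**Figure D2:**
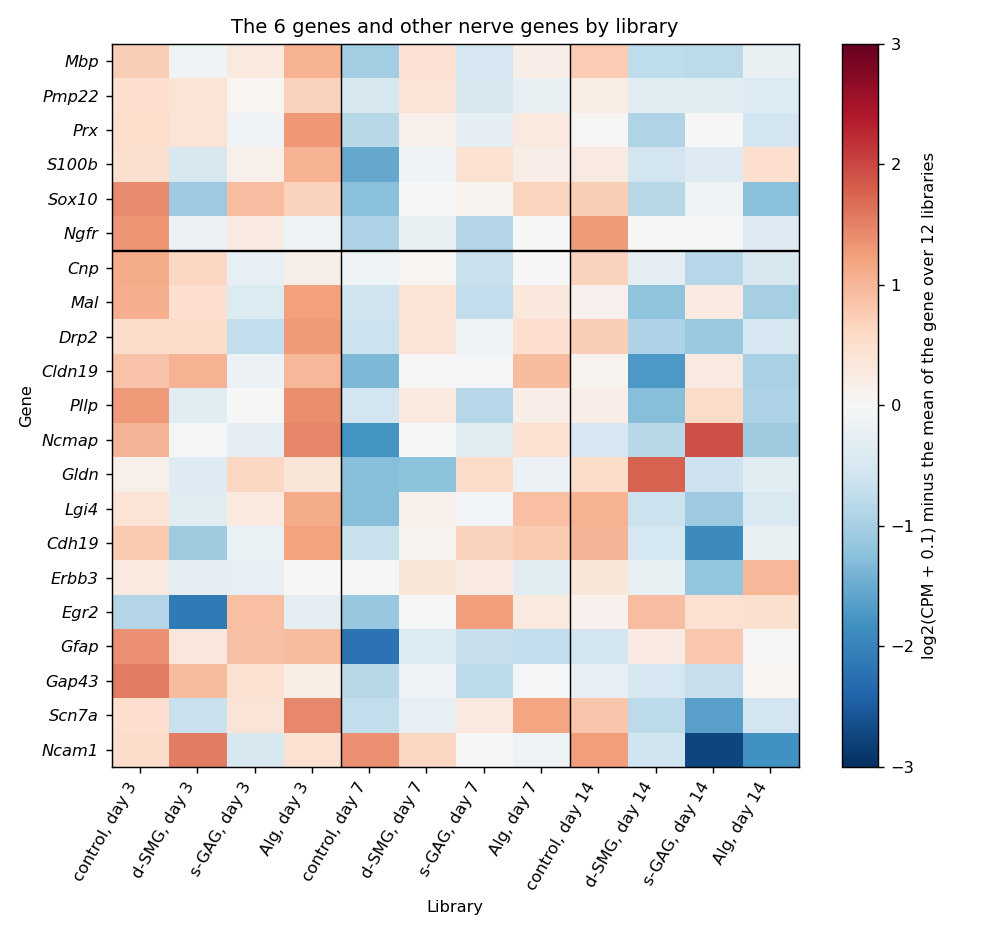
Level of the 6 genes (above the line) and of 15 other nerve genes in each library, as log2(CPM + 0.1) minus the mean of the gene over the 12 libraries (red higher, blue lower). The column of control on day 7 is blue in all 6 genes and in *Ncmap*, *Lgi4*, and *Gfap*, while *Ncam1* is red there.

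Each dressed library was set against the control library of its day, which gives 54 ratios over 6 genes and 9 pairs. With 1 library on each side there is no test of the treatment, and the 95% intervals cover counting error only. The 3 pairs of a day share 1 control library, so they are not independent of each other. Of the 54 ratios 21 were 2-fold or more apart, 10 of them higher and all on day 7, and 11 of them lower and all on day 3 or 14.

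On day 7 the dressed libraries were higher in 17 of 18 ratios. *S100b* was 2.66-fold higher in d-SMG, 3.35-fold in Alg, and in s-GAG its log2 ratio had an interval of 1.65 to 2.37. *Sox10* was 2.56-fold, 2.73-fold, and 4.10-fold higher in d-SMG, s-GAG, and Alg. *Mbp* was 2.85-fold higher in d-SMG (log2 ratio 1.51, interval 1.12 to 1.93) and 2.42-fold in Alg, and only 1.47-fold in s-GAG. *Prx* was 2.02-fold higher in d-SMG and 2.22-fold in Alg. *Pmp22* in s-GAG was the exception, with a log2 ratio of -0.0024 that turned positive when the libraries were scaled by their totals alone or taken as FPKM. The number of genes 2-fold or more apart was 4 of 6 in d-SMG, 2 of 6 in s-GAG, and 4 of 6 in Alg, against 13.2%, 26%, and 24.4% of all genes with at least 10 reads in the pair.

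On day 14 the order was the opposite, and the dressed libraries were lower in 17 of 18 ratios. *Ngfr* was lower in d-SMG (log2 ratio -1.30, interval -1.64 to -0.98), in s-GAG (-1.35, interval -1.69 to -1.02), and in Alg (-1.69, interval -2.06 to -1.33). *Mbp* was lower by a log2 ratio of -1.55 in d-SMG, -1.57 in s-GAG, and -0.99 in Alg. *Sox10* had log2 ratios of -1.63, -0.88, and -2.10. The exception was *S100b* in Alg, 1.19-fold higher (log2 interval 0.03 to 0.48). The count 2-fold or more apart was 3 of 6 in d-SMG, 2 of 6 in s-GAG, and 2 of 6 in Alg, against 28.6%, 57.6%, and 21.2% of all genes. In the s-GAG pair, where more than every other gene was that far apart, 2 of 6 is below the background.

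On day 3 the 3 dressings differed in direction. All 6 genes were lower than control in d-SMG and in s-GAG, and 4 of 6 were higher in Alg. *Sox10* in d-SMG had the largest ratio of all 54, at 0.164 of control (log2 ratio -2.61, interval -3.56 to -1.80). *Ngfr* was lower in all 3, with log2 ratios of -1.51 in d-SMG, -1.09 in s-GAG, and -1.51 in Alg. *Prx* was 1.71-fold and *S100b* 1.48-fold higher in Alg. The count 2-fold or more apart was 2 of 6 in d-SMG, 1 of 6 in s-GAG, and 1 of 6 in Alg, against 24%, 25.4%, and 19.9% of all genes. These shares lie near or below the background. The d-SMG library of day 3 is the one with almost no keratinocyte reads, and the part of that difference in its low *Sox10* was not tested.

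*Ngfr* thus differed from *Mbp* and *Prx* in its 2-fold ratios on day 3 and 7, but less from *Mbp* on day 14. On that day *Mbp* was also 2-fold or more lower in d-SMG and s-GAG. *Ngfr* was 2-fold or more lower in all 6 pairs of day 3 and 14, and on day 7, where control was the lowest of the 12 libraries, no pair reached 2-fold. Reads of *Ngfr* and *Mbp* were about equal in the control libraries of day 3 (1.09 *Ngfr* reads per *Mbp* read, interval 0.94 to 1.26) and day 14 (1.03, interval 0.88 to 1.20). The ratio was 0.311 in Alg on day 3 (interval 0.251 to 0.383) and 1.22 in d-SMG on day 14 (interval 0.91 to 1.64). As this ratio is taken within a library, no scaling between libraries enters it.

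**Figure D3:**
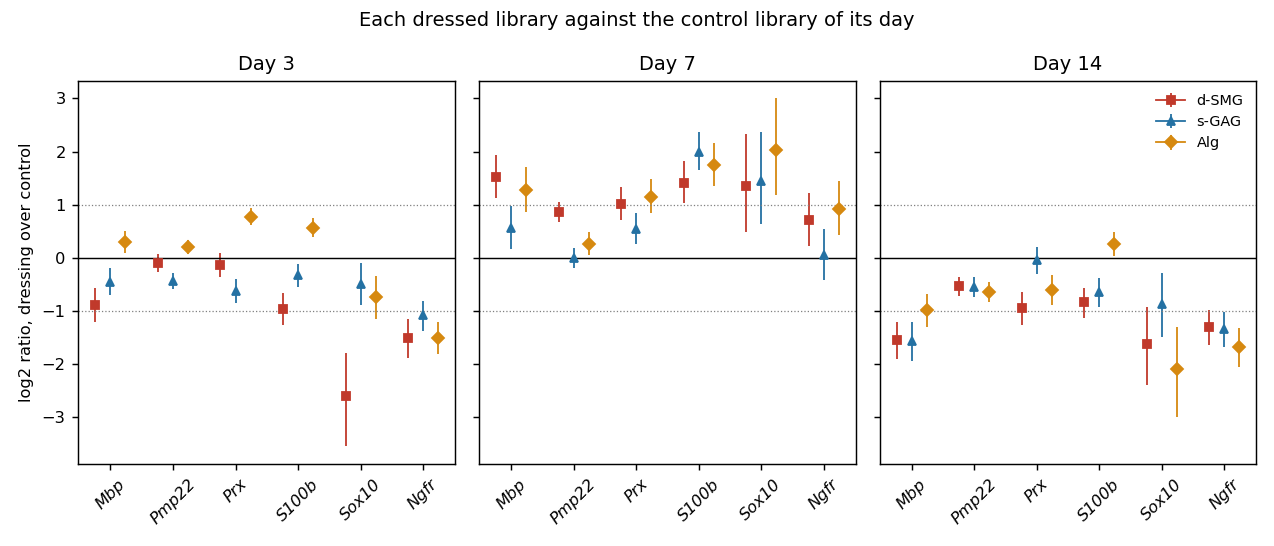
log2 ratio of each dressed library to the control library of its day for the 6 genes, with 95% counting intervals as bars, a solid line at 0, and dotted lines at 2-fold. On day 7 all points but *Pmp22* in s-GAG lie above 0, and on day 14 all but *S100b* in Alg lie below it.

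To ask whether a dressing differed from control beyond the spread between days, treatment and day were fitted together in edgeR with the 3 days as replicates. None of the 6 genes passed an adjusted p of 0.05 in any of the 3 comparisons, and neither did any of the 16110 genes (0% each). At an unadjusted p under 0.05, again none of the 6 was called with d-SMG, s-GAG, or Alg, against 1.35%, 9.26%, and 3.12% of all genes. DESeq2 called none of the 6 either, and 9, 288, and 88 of all genes with d-SMG, s-GAG, and Alg. A p that misses the threshold does not show that treatments acted alike. A change in direction between days, as seen above, counts as spread in this fit.

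*Ngfr* had the most even differences from control, with a log2 fold change of -0.88 ± 0.49 (SE) in d-SMG, -0.92 ± 0.49 in s-GAG, and -0.85 ± 0.50 in Alg. Their adjusted p-values were 1, 0.572, and 1 (edgeR quasi-likelihood test). The mean level was 12.2 ± 7.57 CPM (SD, n = 3 days) in control, 6.04 ± 0.478 in d-SMG, 5.96 ± 2.21 in s-GAG, and 5.84 ± 0.763 in Alg. Each dressing was lower than control on 2 of 3 days. Without the control library of day 7, a setting chosen after its values were seen, the differences were -1.39, -1.38, and -1.39, with adjusted p-values of 1, 0.777, and 1.

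*Sox10* in d-SMG had the largest fitted difference, -1.20 ± 0.74 (adjusted p = 1 in edgeR), with 1.61 ± 0.726 CPM in d-SMG and 3.88 ± 2.85 in control. It was -0.29 ± 0.70 in s-GAG and -0.46 ± 0.72 in Alg. *Mbp* gave -0.43 ± 0.53 in d-SMG, -0.64 ± 0.52 in s-GAG, and 0.02 ± 0.52 in Alg. *Pmp22* lay between -0.32 and 0.04 and *Prx* between -0.07 and 0.45 over the 3 dressings. *S100b* in Alg was the only case of a gene higher than its control on all 3 days, with a difference of 0.68 ± 0.47 (adjusted p = 1 in edgeR), and *Pmp22* in s-GAG the only one lower on all 3. On day 7, however, *Pmp22* in s-GAG was level with control, at a log2 ratio of -0.0024 (interval -0.19 to 0.19). Each of these fitted differences was smaller than 2 of its standard errors. Without the control library of day 7, *Sox10* stood at -1.89 in d-SMG, -0.88 in s-GAG, and -1.15 in Alg, and *Mbp* at -1.005, -1.14, and -0.49. *S100b* in Alg was then at 0.21, *Prx* in Alg at 0.13, and *Pmp22* in s-GAG at -0.54. None was called.

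The same fit compared the days with the 4 treatments as replicates. All 6 genes had their fitted level lower on day 7 than on day 3 and lower on day 14 than on day 3, and none passed the test. The median difference of the 6 was -0.58 for day 7 against day 3 and -0.62 for day 14 against day 3, beside medians of 0.00 and 0.01 over all genes tested. Without the control library of day 7 the first median was -0.26 and the second -0.66. No gene of the 16110 was called (0%), and at an unadjusted p under 0.05 the background was 1.81%, 4.95%, and 3.12% of genes for day 7 against 3, day 14 against 3, and day 14 against 7, with 0 of 6 members in each.

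*Pmp22* had lower levels than day 3 in 4 of 4 treatments both on day 7 (-0.58 ± 0.27, adjusted p = 0.999 in edgeR) and on day 14 (-0.58 ± 0.27, adjusted p = 0.882). Its mean was 40.0 ± 7.16 CPM (SD, n = 4 treatments) on day 3, 26.7 ± 8.20 on day 7, and 26.1 ± 5.77 on day 14. *Prx* had the lowest p of the 6 genes, 0.0590 for day 14 against day 3 in edgeR, with a difference of -0.83 ± 0.39 and lower levels in 3 of 4 treatments. The exception was s-GAG, where *Prx* was at 13.6 CPM on day 3 and 14.4 on day 14. *S100b* was lower on day 14 than on day 3 in 4 of 4 treatments, by only -0.32 ± 0.41.

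*Ngfr* was the gene whose day 14 level came nearest to that of day 3, with a difference of -0.08 ± 0.42, while day 7 lay at -0.72 ± 0.43. Between day 7 and 14 the median difference of the 6 genes was -0.03, and the signs were split 3 and 3. Without the control library of day 7 this median was -0.36. With the control library of day 7 left out, *Sox10* on day 7 against day 3 went from -0.45 to 0.08, *S100b* from -0.43 to -0.02, *Ngfr* from -0.72 to -0.31, and *Mbp* from -0.59 to -0.21, while *Pmp22* (-0.42) and *Prx* (-0.45) stayed below 0. None of these was called.

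**Figure D4:**
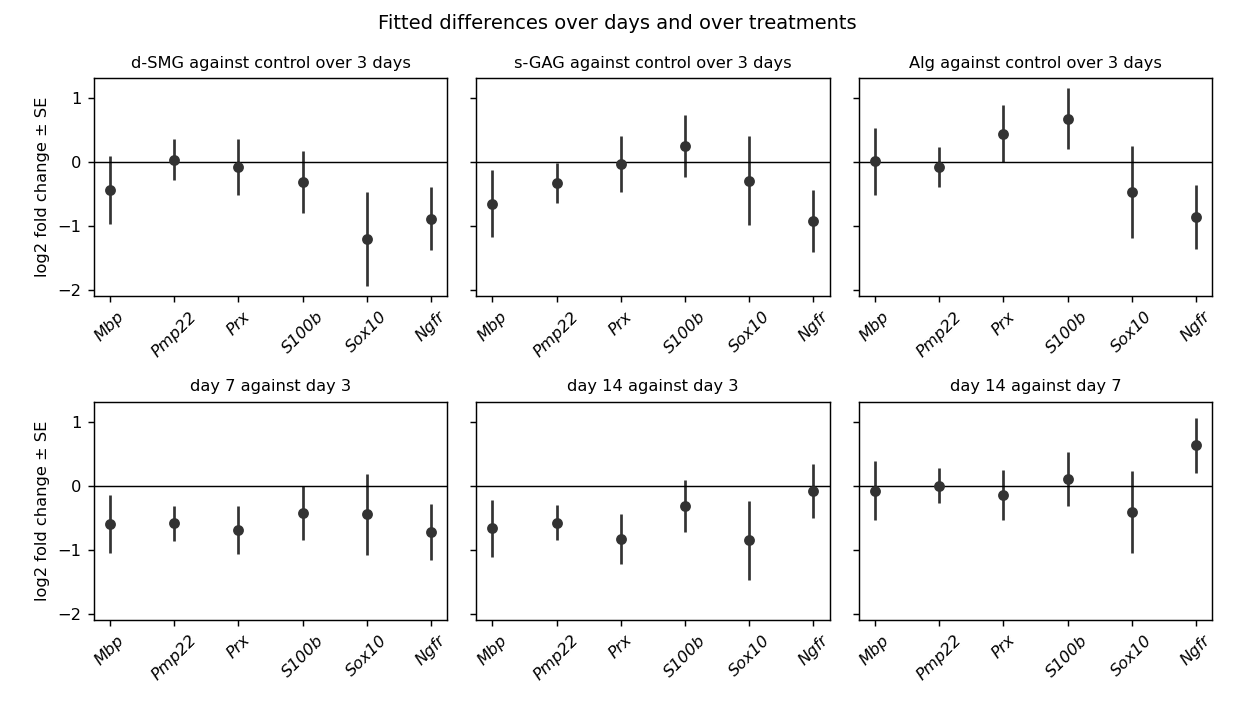
Fitted log2 fold changes of the 6 genes with standard errors as bars, in 3 comparisons of a dressing with control over the 3 days (upper row) and 3 comparisons of days over the 4 treatments (lower row). The first group named in a panel title is higher above 0, and all 6 points lie below 0 for day 7 and for day 14 against day 3.

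Of 65 further genes in 5 lists (myelin, Schwann lineage, nonmyelinating and repair Schwann cells, neurotrophins and neuregulins with their receptors, axons and neurons), 55 could be tested, and none was called by edgeR in any of the 6 comparisons. At an unadjusted p under 0.05 the numbers were 0 with d-SMG, 8 with s-GAG, and 3 with Alg, and 7, 6, and 5 for day 7 against 3, day 14 against 3, and day 14 against 7. These are 0%, 14.5%, 5.45%, 12.7%, 10.9%, and 9.09% of the 55, in the order given, against 1.35%, 9.26%, 3.12%, 1.81%, 4.95%, and 3.12% of all genes. The lists were chosen with earlier results of these data known, so these shares are a description. By DESeq2, *Shh*, *Ncam1*, and *Cnp* passed with s-GAG, among 288 calls over all genes, and they are named because DESeq2 called them. *Shh*, a secreted signal of repair Schwann cells and of hair follicles, was higher (log2 fold change 3.12 ± 0.75, adjusted p = 0.0044 in DESeq2). It had only 45, 3, and 12 reads in the control libraries of day 3, 7, and 14. *Ncam1* (-2.27 ± 0.61, adjusted p = 0.017) and *Cnp*, an enzyme of myelin membranes (-1.16 ± 0.35, adjusted p = 0.048), were lower. *Shh* and *Ncam1* were not particular to s-GAG. With Alg they also had the largest edgeR differences of their list, 2.33 and -1.80, and neither was called.

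Of the 14 myelin genes tested beside the 6, 13 were lower on day 7 than on day 3, with a median of -0.67, and 10 were lower on day 14, with a median of -0.59. These medians stood near those of the 6 genes. The day 7 medians share the control library of day 7, in which 6 of the 14 genes had their lowest value. Without that library the median of the 6 genes was -0.26, and that of the 14 was not computed. *Ncmap* differed on day 7 by -1.04 ± 0.76, from a mean of 10.8 CPM on day 3 to 5.62 on day 7. With s-GAG the same list had 8 of 14 genes higher and a median of 0.09, and *Mag* and *Ncmap*, both with highest values in the s-GAG library of day 14, led it at 1.75 and 1.19. *Mag* had only 3 to 18 reads in a library.

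The Schwann lineage list did not show the same order, with 8 of 11 genes higher on day 7 than on day 3 and a median of 0.21. It was led by *Tfap2a* (0.61) and *Egr2* (0.60), which are also expressed by keratinocytes and by many activated cells. Both had their lowest value in the d-SMG library of day 3, 0.333 CPM from 4 reads and 3.33 CPM. That library had almost no keratinocyte reads. In control both were lower on day 7 than on day 3, and in each dressing higher. *Erbb3*, the neuregulin receptor that Schwann cells need, differed by 0.21 ± 0.39. In the list of nonmyelinating and repair Schwann cells, *Gfap* had the largest difference on day 7 (-2.01 ± 0.51, adjusted p = 0.999 in edgeR), from a mean of 3.17 CPM on day 3 to 0.841 on day 7. *Gap43*, a protein of growing axons and repair cells, was at -1.25 ± 0.34 on day 7 and -1.15 ± 0.34 on day 14. On day 3 its level in control, 31.4 CPM, was the highest of the 12 libraries.

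The partners of p75 were also measured. Of 11 neurotrophin and neuregulin genes tested, 6 were lower on day 7 than on day 3, with a median of -0.16. *Bdnf*, a neurotrophin ligand of p75, had at most 47 reads in a library, and its difference for day 7 against day 3 was 1.27 ± 0.54 (adjusted p = 0.999 in edgeR). *Sort1*, the sortilin coreceptor of p75, was measured at 32.6 to 111.4 CPM and differed by -0.61 ± 0.42 in s-GAG.

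Axon and neuron genes were unequally measured. *Nefh*, a heavy chain of neurofilaments, had a median of 12.5 CPM and 71 to 372 reads in every library, and *Stmn2* and *Tubb3* had medians of 5.33 and 4.90 CPM. Of 14 genes 8 had a median below 1 CPM and 6 had no reads in at least 1 library. *Snap25*, a protein of nerve terminals, had no reads in 7 libraries and *Scn10a*, a sodium channel of pain fibers, in 9. The cell bodies of skin axons lie outside the skin. Of the 8 that could be tested, 6 were lower on day 7 than on day 3, with a median of -0.63, and *Gal*, a neuropeptide, led them at -2.69 ± 0.99.

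Over the 12 libraries and 14108 genes, the 3 genes with the highest correlation of log2 levels were found for each member. Libraries share tissue makeup and scaling, so these values are a description. *Mbp* was nearest to *Lgi4* (Pearson r = 0.91), *Nxpe1* (0.91), and *Ugt8* (0.86), and *Prx* to *Mal* (0.93), *Pln* (0.91), and *Cldn19* (0.90). *Pmp22* was nearest to *Ccdc160* (0.89), *Nxpe1* (0.85), and *Mal* (0.84). *S100b* was nearest to *Ugt8* (0.93), *Entpd2* (0.90), and *Plekha4* (0.90), and *Sox10* to *Hepacam* (0.87), *Aatk* (0.84), and *Ugt8* (0.83). Of these 18 places 7 were held by 4 genes of the nerve lists, which make up 55 of the genes compared. Some of the likest genes were near the floor. *Ugt8* had 0 to 28 reads in a library, and *Ccdc160* and *Hepacam* reached at most 1.02 and 1.36 CPM. By ranks (Spearman rho) *Ugt8* stood at 0.86 with *Mbp*, 0.77 with *S100b*, and 0.85 with *Sox10*.

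*Ngfr* was nearest to genes of another kind, *Ifi27* (r = 0.93), *Ifi27l2b* (0.92), and *B2m* (0.86). By ranks (Spearman rho) these stood at 0.88, 0.88, and 0.61. *Ifi27* ranged from 18.7 to 110.3 CPM and *B2m*, the light chain of class I histocompatibility molecules, from 424.5 to 1398 CPM. Among the members, the 3 myelin genes had r between 0.78 and 0.83 with each other over the 12 libraries. Pairs with *Ngfr* had r between 0.35 and 0.67, and *S100b* with *Ngfr* was the lowest pair. Without the control library of day 7, that pair stood at 0.08 and *Mbp* with *Pmp22* at 0.81.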

How the data were processed

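RNA sequencing of wound skin from diabetic rats gave 12 libraries, 1 for each of 4 treatments on each of 3 days. Libraries were stranded and depleted of rRNA. One deposited table holds raw read counts, whole numbers for 25620 genes. The other holds FPKM, per the file headers, for 25524 genes, in which the authors had divided reads by transcript length and library total. The submitters' processing notes name bcl2fastq, FastQC, TopHat2, and edgeR. Their versions, the genome build, and how reads were counted are not given in the sources used here. Each of the 2 tables holds 1 value column that matches no described sample, which was not used.

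Counts were analysed in R 4.3.3 with edgeR 4.0.16 (TMM, filterByExpr, quasi-likelihood test, terms for treatment and day, Benjamini-Hochberg adjustment over 16110 genes, threshold 0.05). Days served as replicates of treatments and treatments as replicates of days, which leaves 6 residual degrees of freedom, and p-values measure the spread between these libraries. The block pairs libraries by the day or treatment in their labels. Within a day, log2 ratios of TMM-scaled CPM were taken with a prior count of 0.125 for genes with at least 10 reads in the pair, and exact Clopper-Pearson intervals at 95% confidence covered counting error only. Correlations used a prior count of 2. Depth ran from 13748887 to 38302461 reads. DESeq2 1.42.0, limma 3.58.1 on log2(FPKM + 1) or log2(FPKM + 0.1), RLE or library size scaling, no filter, no block, only the compared libraries, and left-out days or treatments were tried as alternatives. Scripts were tested on simulated data. Figures were drawn in matplotlib.

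The 6 genes and the 12 other lists (123 genes, of which 2 were not found) were chosen with earlier results of these data known. Genes of a list were named if called, and otherwise as the 2 with the largest difference. The likest genes were the 3 with the highest r, leaving out provisional symbols. Genes named outside these rules, as *Gap43* on day 7, *Erbb3*, 3 axon genes, and the partners of *Ngfr*, were chosen for their role or after their values were seen. Some genes of the lists are not reported here by name.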

Additional observations from a re-analysis of the deposited data

Results flagged for a closer look

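Among the 4 libraries of a day, the control library of day 14 stood apart for *Pmp22*, with a gap to the next library of 0.867 of the whole range, and for *Ngfr*, with 0.863. Both were the highest of their day, and 18 groups of 4 libraries were examined. Chance marks about 1 in 20 groups, and the 4 libraries of a day carry different treatments.

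In 4 genes the 3 dressings lay on opposite sides of control on different days. The difference between days was not tested, and the 3 ratios of a day share 1 control library. The median log2 ratio of day 7 minus that of day 14 was 2.83 in *Mbp*, 1.61 in *Prx*, 3.07 in *Sox10*, and 2.06 in *Ngfr*. That of day 7 minus that of day 3 was 2.19 in *Sox10* and 2.22 in *Ngfr*.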

How the results depend on the processing

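None of the 6 genes was called under any alternative, in any of the 6 fitted comparisons. Of 486 refitted differences of the 6 genes in these comparisons, 450 kept their direction and 36 turned, all of them uncalled. The number of within-day ratios at 2-fold or more, 21 of 54, was 12 with FPKM and a pseudocount of 1, which shrinks low genes, and between 20 and 26 under RLE, library size, FPKM with a pseudocount of 0.1, and a prior count of 2. Scaling by library size moved the median of all genes by -0.46 in the d-SMG pair of day 3, 0.29 in the d-SMG pair of day 7, and -0.39 in the s-GAG pair of day 14.

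Without the replicate block that pairs libraries by day or treatment, no gene was called (0 of 36 member values, lowest adjusted p 0.471), and for day 14 against day 7 *Mbp* turned to 0.0297 and *Pmp22* to -0.0103. For day 14 against day 7, *Pmp22* was also -0.11 with library size alone, -0.0145 with no filter, -0.0609 with limma on FPKM and a pseudocount of 1 with or without a filter, and -0.0637 with a pseudocount of 0.1. *Sox10* with s-GAG was 0.0067 when only the compared libraries were fitted. Leaving out the control library of day 7, a setting chosen after its values were seen, turned *Pmp22* with d-SMG to -0.19, *S100b* with s-GAG to -0.30, *Mbp* with Alg to -0.49, *Sox10* for day 7 against day 3 to 0.0794, and *Pmp22* and *S100b* for day 14 against day 7 to -0.17 and -0.31.

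With 1 day left out, the differences from control in d-SMG ranged from -1.28 to 0.36 (*Mbp*), -0.35 to 0.41 (*Pmp22*), -0.56 to 0.43 (*Prx*), and -0.91 to 0.12 (*S100b*). In s-GAG they ranged from -0.22 to 0.20 (*Prx*), -0.44 to 0.70 (*S100b*), and -0.64 to 0.0821 (*Sox10*), and in Alg from -0.38 to 0.69 (*Mbp*), -0.22 to 0.24 (*Pmp22*), and -1.30 to 0.28 (*Sox10*). With 1 treatment left out, *Sox10* for day 7 against day 3 ranged from -0.91 to 0.0752. For day 14 against day 7 the ranges were -0.71 to 0.37 (*Mbp*), -0.27 to 0.23 (*Pmp22*), -0.52 to 0.15 (*Prx*), -0.37 to 0.45 (*S100b*), and -1.04 to 0.12 (*Sox10*).

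Over all genes edgeR called 0 in every comparison, and DESeq2 called 9 (d-SMG), 288 (s-GAG), 88 (Alg), 0 (day 7 against day 3), 39 (day 14 against day 3), and 7 (day 14 against day 7). Fitting only the compared libraries called 12 (s-GAG) and 9 (Alg), no filter called 1 (s-GAG), and limma on FPKM without a filter called 2 (Alg). The causes were not tested. The 13 to 15 reads behind the lowest *Sox10* values limit their precision.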
